A study of Homo sapiens with 6 samples.

Results

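Potassium channel genes were examined in a comparison of DNA methylation between DNMT3B knockout and control M07e cells. The set holds the 81 autosomal protein-coding RefSeq genes whose symbol starts with one of the 16 KCN prefixes for pore-forming and closely related subunits (KCNA, KCNB, KCNC, KCND, KCNF, KCNG, KCNH, KCNJ, KCNK, KCNMA, KCNMB, KCNN, KCNQ, KCNS, KCNT and KCNV) followed by a digit. A region of the table belonged to a gene when it overlapped the gene's span or lay within 5 kb of it. This gave 268 of 35130 regions, at 68 of the 81 genes. For 13 genes the table held no region, and those genes are KCNA10, KCND2, KCNJ1, KCNJ8, KCNJ13, KCNJ15, KCNJ16, KCNJ18, KCNK6, KCNK18, KCNMB1, KCNMB2 and KCNV2.

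M07e is a human acute megakaryoblastic leukemia line that needs a growth factor and was kept here in 10 ng/mL GM-CSF. The 3 knockout libraries came from M07e cells whose DNMT3B gene was disrupted with CRISPR, and the 3 control libraries from M07e cells labelled WT. DNMT3B is an enzyme that sets new DNA methylation, and its own loss was not analysed here. The labels describe the same medium for both groups. The labels do not say whether the knockout is 1 clone or a pool, nor whether libraries came from separate cultures. Methylation was read by reduced representation bisulfite sequencing (RRBS), in which MspI cuts at CCGG so that mostly CpG-rich sequence is read.

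All levels, differences and q-values below are those of the authors' deposited table, which gives 1 mean per group and region in percent. The CpG sites counted for a region are cytosines of either strand, so both strands of a CpG can be counted. Levels of single libraries and read depths were not analysed here, so no value carries a replicate error and no test between libraries was possible. One column of means is named WT and the other by a code absent from the labels; the coded one was taken as the knockout, on which every direction rests. A region is called here when the authors' q is under 0.01 and the means differ by at least 25 percentage points. A rank test of 3 libraries against 3 could not reach p-values as low as those deposited, so a call does not measure the spread between libraries.

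Potassium channels let potassium ions leave or enter cells along their gradient and so set the resting membrane potential and end electrical signals. Voltage-gated, calcium- or sodium-activated, inwardly rectifying and two-pore families differ in what opens them. In blood cells they act in volume control and calcium entry: KCNA3 is the main voltage-gated potassium channel of T lymphocytes and is also found in megakaryocytes and platelets, and KCNN4 is the calcium-activated Gardos channel of red cells. Many of the other genes work mainly in neurons, heart or glia. DNMT3B adds methyl groups to CpG sites that were unmethylated before.

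RefSeq promoter windows (GRCh38.p14, the hg38 assembly; 250 bases before to 50 bases after an annotated start) were at hand for 60 of the 81 genes, with 84 starts in all. Of 18 channel regions that overlapped such a window, 3 were called (16.7%), against 7.73% of regions at windows of all autosomal protein-coding genes. The windows that held a called region are printed here, with the window of KCNK3 beside them because 2 neighbouring regions in it moved in opposite directions without being called. Each sequence runs 5′ to 3′ along the strand of the gene, and capitals mark the bases spanned by regions of the table.
KCNJ10 (chr1:160070111-160070410, minus strand): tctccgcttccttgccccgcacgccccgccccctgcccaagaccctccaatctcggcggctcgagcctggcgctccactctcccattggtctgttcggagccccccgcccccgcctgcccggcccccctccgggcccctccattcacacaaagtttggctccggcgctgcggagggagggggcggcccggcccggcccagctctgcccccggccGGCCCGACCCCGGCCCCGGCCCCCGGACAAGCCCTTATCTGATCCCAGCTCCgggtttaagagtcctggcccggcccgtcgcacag
KCNH8 (chr3:19148260-19148559, plus strand): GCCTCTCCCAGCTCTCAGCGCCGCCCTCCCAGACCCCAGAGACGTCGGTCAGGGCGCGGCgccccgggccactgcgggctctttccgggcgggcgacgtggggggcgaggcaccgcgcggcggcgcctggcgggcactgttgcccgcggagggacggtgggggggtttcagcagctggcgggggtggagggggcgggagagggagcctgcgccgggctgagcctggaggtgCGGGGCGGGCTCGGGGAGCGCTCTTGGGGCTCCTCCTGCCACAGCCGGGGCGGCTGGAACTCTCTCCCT
KCNN1 (chr19:17952007-17952306, plus strand): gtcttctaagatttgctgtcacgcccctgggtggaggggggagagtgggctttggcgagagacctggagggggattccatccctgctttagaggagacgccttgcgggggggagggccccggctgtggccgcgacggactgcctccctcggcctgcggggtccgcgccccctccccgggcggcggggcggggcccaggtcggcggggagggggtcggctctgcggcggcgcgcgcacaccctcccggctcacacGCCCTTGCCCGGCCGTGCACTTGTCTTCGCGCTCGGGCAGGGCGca
KCNK3 (chr2:26692472-26692771, plus strand): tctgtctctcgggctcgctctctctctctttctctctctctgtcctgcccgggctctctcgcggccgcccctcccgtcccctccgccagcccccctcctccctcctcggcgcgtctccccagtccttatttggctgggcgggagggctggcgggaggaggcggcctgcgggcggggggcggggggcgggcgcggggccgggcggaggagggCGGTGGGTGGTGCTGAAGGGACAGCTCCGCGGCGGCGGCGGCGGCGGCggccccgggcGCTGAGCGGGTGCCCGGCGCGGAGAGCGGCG
The windows hold 29, 33, 32 and 39 CpG dinucleotides in the order printed, and the capitals touch 6, 13, 7 and 16 of them. The median is 16.5 over the 84 channel windows and 14 over all 35116 windows of the RefSeq table. The printed windows were picked because they hold regions read by RRBS, which reads mostly CpG-rich sequence. CCGG, the MspI cutting site, which reads the same on both strands, occurs 12 times in the KCNJ10 window and 4 times in each of the other 3. It is present in 78.6% of the channel windows and in 63.1% of all windows.

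At KCNJ10, which encodes the main inward rectifier of glial cells, the capitals cover a region centred 10.5 bases before the annotated start. Its 9 sites were at 11.6% in the knockout and 57.5% in the control (chromosome 1, 160070145 to 160070196, q = 0.00563). KCNH8, a gene of the ELK group of voltage-gated channels, also had a called loss before its start. The first run of capitals in its window is part of a region of 27 sites with 11.99% in the knockout and 43.4% in the control (chromosome 3, 19148160 to 19148319, q = 0.0062), while the second run belongs to a region of 13 sites with 26.02% in the knockout and 0% in the control that was not called (q = 1). KCNN1 encodes a small-conductance calcium-activated channel and moved the other way. Its 13 sites, centred 25.5 bases after one of its annotated starts, were at 82.1% in the knockout and 40.5% in the control (chromosome 19, 17952261 to 17952304, q = 0.000161). At KCNK3, an acid-sensitive two-pore channel gene, the 9 sites of the first capitals were at 26.9% in the knockout and 4.07% in the control (q = 0.00339, a difference under the 25-point limit), while the second capitals are part of a region that runs past the window, whose 15 sites were at 0% in the knockout and 32.4% in the control (q = 1).

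Methylation at potassium channel genes changed in both directions, with more gains than losses, as in the whole table. Gains made up 70.6% of the channel calls and 67.8% of all calls. Of the channel regions, 34 were called (12.7%), against 6.74% over the whole table. The knockout was higher in 24 of them (8.96% of the channel regions, against 4.57% of all regions) and lower in 10 (3.73% against 2.17%). Called regions lay at 29 of the 68 genes with a region (42.6%), whereas 16.1% of all autosomal protein-coding genes with a region had one. Gains were found at 21 genes and losses at 10, and KCNQ1 and KCNT1 had both. Of the 34 calls 21 had a difference of at least 40 points and 15 had a q under 0.001. Over the whole table, 1201 of 2368 calls reached 40 points and 1162 had a q under 0.001. These shares are descriptions, since regions of one gene share their source and the genes were chosen with earlier results of these data known.

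**Figure D1:**
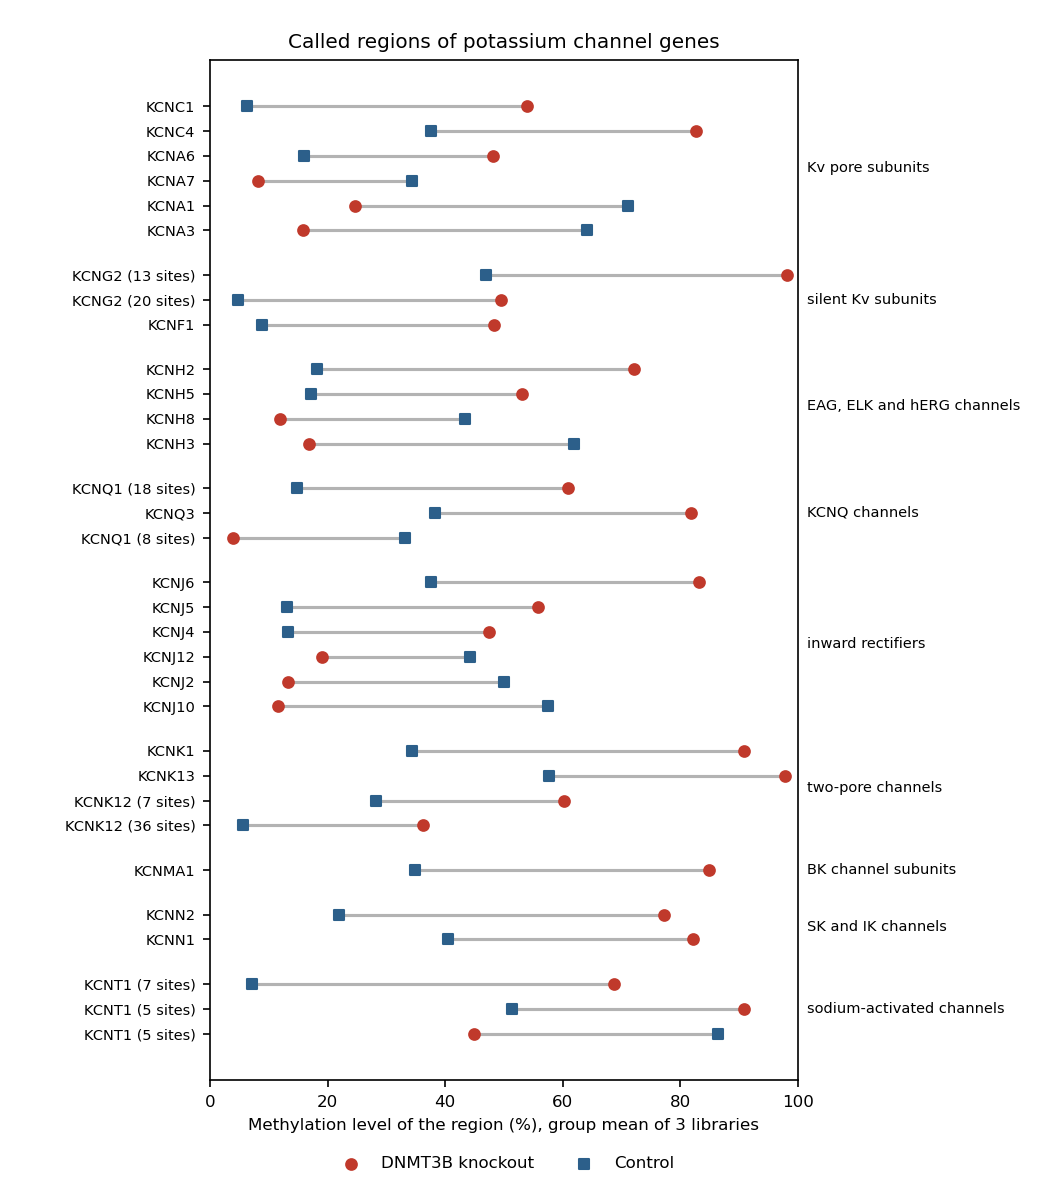
Methylation level (%) of 32 of the 34 called regions, with the DNMT3B knockout mean as a red circle and the control mean as a blue square, grouped by channel type. The 22 gains lie between 4.79% and 57.6% in the control, and the 10 losses lie between 33.2% and 86.4%.

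Channel genes differ from the rest of the table in how many regions and sites they have, and calls depend on both. Among genes with 1 region, 3 of 14 channel genes had a called region (21.4%), against 6.32% of all such genes. With 2 to 3 regions the count was 10 of 31 (32.3%, against 14.9%), with 4 to 6 it was 10 of 17 (58.8%, against 29.9%), and all 6 channel genes with 7 or more regions had one (against 55.4%). Regions with at least 10 CpG sites made up 33.2% of the channel regions and 22.4% of the table. Of these 89 channel regions 24 were called (27.0%, against 16.0%), and of the 179 with fewer sites 10 were called (5.59%, against 4.06%). The part of site number in the overall share was not tested.

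The starting level also differed. The median channel region stood at 31.7% in the knockout and 17.2% in the control, and the median region of the whole table at 30.9% in the knockout and 7.59% in the control. Regions under 10% in both groups were 22 (8.21%), against 17.1% of the table. Where the control level was 40% to 60%, 5 of 29 channel regions were called gains and 4 called losses (31.0%, against 14.4% called over the table). Below 20% the 152 channel regions held 12 gains and 0 losses (7.89%, against 4.10%). The calling rule fixes that absence of losses, because a call needs a difference larger than any control level below 20%. That absence therefore says nothing about direction. This class also holds the 47 channel regions described below with a control mean of 0, of which 0 were called. From 20% to 40% the 64 channel regions held 7 gains and 2 losses (14.1%, against 9.21%). From 60% up the 23 channel regions held 0 gains and 4 losses (17.4%, against 15.1%).

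The median difference (knockout minus control) of channel regions was 20.0 points, with a 95% interval of 12.8 to 23.7 taken over regions and quartiles of -7.00 and 31.6, against 17.4 points over all regions. The deposited difference was positive in 181 channel regions and negative in 87, against 24036 and 11094 over the whole table. In 47 channel regions (17.5%, against 21.0% of the table) the control mean was exactly 0 and the knockout mean between 25% and 33.34%. Of these 0 were called, and 0 such regions were called in the whole table. All called shares given here include such regions, which were a smaller part of the channel regions than of the table. Called shares without them were not computed. Without these regions and 6 mirrored ones (knockout mean of 0) the median difference was 10.1 points. One of the 47, at KCNH2, had 43 sites at 32.6% in the knockout and 0% in the control. It was not called despite a deposited Mann-Whitney p of 3.69e-06, which does not measure the spread between libraries. A missing call at a mean of 0 is therefore not evidence of equal levels.

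**Figure D2:**
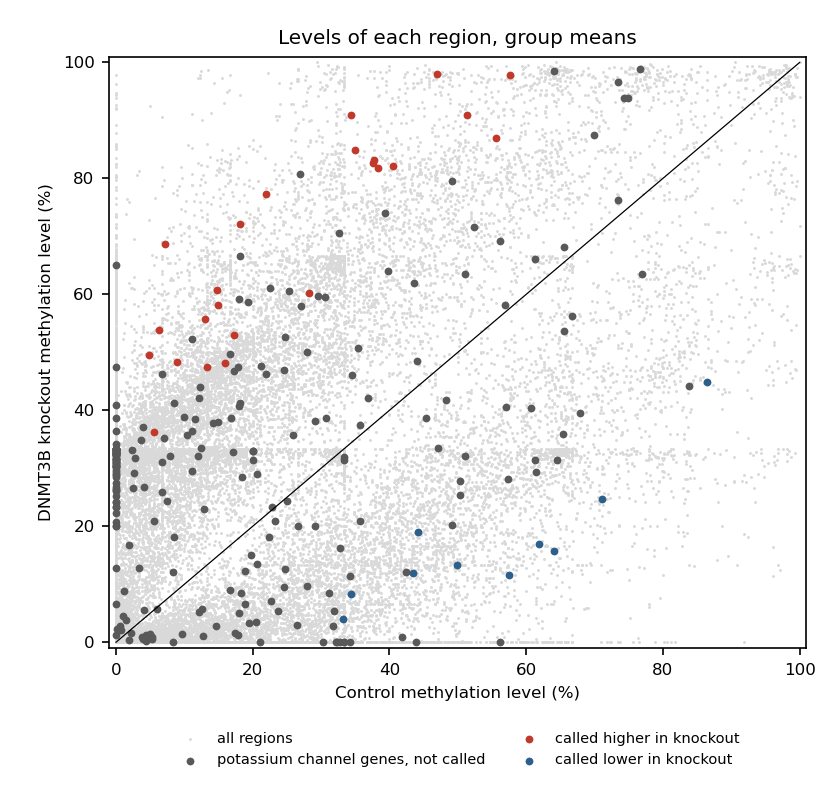
Control level (x axis, %) and DNMT3B knockout level (y axis, %) of every region, with the whole table in light grey and the regions of potassium channel genes in dark grey, red (24 called gains) or blue (10 called losses); the line marks equal levels. The column of points at a control level of 0 includes the 47 channel regions with a knockout mean between 25% and 33.34%.

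The genes that build the pore of voltage-gated (Kv) channels in neurons, muscle and lymphocytes, from KCNA to KCND, had 44 regions at 14 of 16 genes. Of these 7 were called (15.9%, against 6.74% of all regions), 4 gains and 3 losses. The losses were all at KCNA genes. At KCNA3, the T lymphocyte channel gene, 21 sites just outside the gene (chromosome 1, 110675236 to 110675307, centred 331.5 bases before an annotated start) were at 15.8% in the knockout and 64.1% in the control (q = 1.57e-05). The next 14 sites on its far side from the gene were at 2.72% in the knockout and 31.7% in the control without a call (q = 0.411), while 23 sites inside the gene were at 41.0% in the knockout and 0% in the control (q = 1). KCNA1, an axonal channel gene, had 12 sites at 24.7% in the knockout and 71.0% in the control (chromosome 12, 4911364 to 4911420, inside the gene, q = 0.00632). KCNA7, a channel gene of skeletal and heart muscle, had 15 sites at 8.23% in the knockout and 34.3% in the control, 2221 bases outside the gene and within NTF4, a neurotrophin gene (chromosome 19, 49065013 to 49065176, q = 0.00186). A second KCNA7 region of 15 sites before its start went the other way, 64.1% in the knockout and 39.8% in the control, and missed the difference limit at 24.3 points (q = 0.00128).

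Among the Kv gains were KCNC1 and KCNC4, genes of channels that serve fast-firing neurons. KCNC1 rose to 53.9% in the knockout against 6.32% in the control over 12 sites inside the gene, 362 bases from its start (chromosome 11, 17735126 to 17735160, q = 0.000169). KCNC4 was at 82.7% in the knockout and 37.6% in the control over 5 sites deep inside the gene (chromosome 1, 110256717 to 110256727, q = 0.00155). KCNA6, the neighbour of KCNA1 on chromosome 12, carried the called channel region with most sites. Its 45 sites over 676 bases, 444.5 bases from the start, were at 48.1% in the knockout and 16.0% in the control (4809441 to 4810116, q = 0.000101). A further 10 sites of KCNA6 were at 59.3% in the knockout and 18.0% in the control without a call (q = 0.0122), and the region overlaps the antisense gene KCNA6-AS1.

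Silent Kv subunits (KCNF, KCNG, KCNS and KCNV), which form no channel alone and modify KCNB channels, had 33 regions at 9 of 10 genes. Of these 3 were called (9.09%, against 6.74% of all regions), all gains, where 67.8% of the calls in the whole table were gains. KCNG2 had 2 of them among its 14 regions. One lay 565.5 bases after its start, at 98.1% in the knockout and 46.9% in the control over 13 sites (chromosome 18, 79798486 to 79798521, q = 0.000106). The other lay deep inside the gene, at 49.5% in the knockout and 4.79% in the control over 20 sites (79864275 to 79864619, q = 0.000371). KCNF1 was at 48.3% in the knockout and 8.89% in the control over 15 sites inside the gene (chromosome 2, 10912576 to 10912652, q = 0.00802).

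EAG, ELK and hERG channels (KCNH) had 26 regions at all 8 genes, with 2 gains and 2 losses called (15.4%, against 6.74% of all regions). KCNH2, the hERG gene whose channel repolarises heart muscle, was at 72.1% in the knockout and 18.1% in the control over 10 sites inside the gene (chromosome 7, 150946489 to 150946571, q = 0.000447). Another 7 KCNH2 sites near an annotated start were at 66.7% in the knockout and 18.1% in the control without a call (q = 0.0259). KCNH5, a brain channel gene of the EAG group, rose to 53.0% in the knockout against 17.2% in the control over 25 sites that lie 330 bases outside the gene (chromosome 14, 63045788 to 63046089, q = 0.0018). Both losses were at ELK genes. KCNH3 had 18 sites at 16.9% in the knockout and 61.8% in the control, inside the gene and 268.5 bases from an end (chromosome 12, 49539266 to 49539331, q = 4.52e-05). At KCNH8 the promoter loss printed above was joined, 1526.5 bases before the start, by 5 sites at 0.833% in the knockout and 41.8% in the control that were not called (q = 0.0241).

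KCNQ channels carry the M-current of neurons and, with KCNQ1, a slow current of the heart. Their 59 regions at 5 genes held 4 calls (6.78%), a share close to the 6.74% of the table. KCNQ1 had 29 regions, the most of any channel gene, and 2 calls of opposite direction. Its 8 sites at chromosome 11, 2559563 to 2559626, were at 3.96% in the knockout and 33.2% in the control (q = 8.9e-05), and 18 sites at 2732551 to 2732786 were at 60.8% in the knockout and 14.8% in the control (q = 0.000255). KCNQ1 also contains the imprinting control region from which the antisense RNA KCNQ1OT1 is transcribed on the paternal copy. The 2 regions nearest to the upper end of KCNQ1OT1 (2699994) were not called. Within its span, 246 bases from that end, 9 sites were at 8.98% in the knockout and 16.6% in the control (q = 0.0504), and 839 bases beyond it 16 sites were at 18.1% in the knockout and 8.49% in the control (q = 0.00155). The other 27 KCNQ1 regions lay outside the KCNQ1OT1 span.

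KCNQ3, a gene for a subunit of the neuronal M-channel, was at 81.9% in the knockout and 38.3% in the control over 16 sites inside the gene, 193.5 bases from an end (chromosome 8, 132480878 to 132480925, q = 0.00046).

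**Figure D3:**
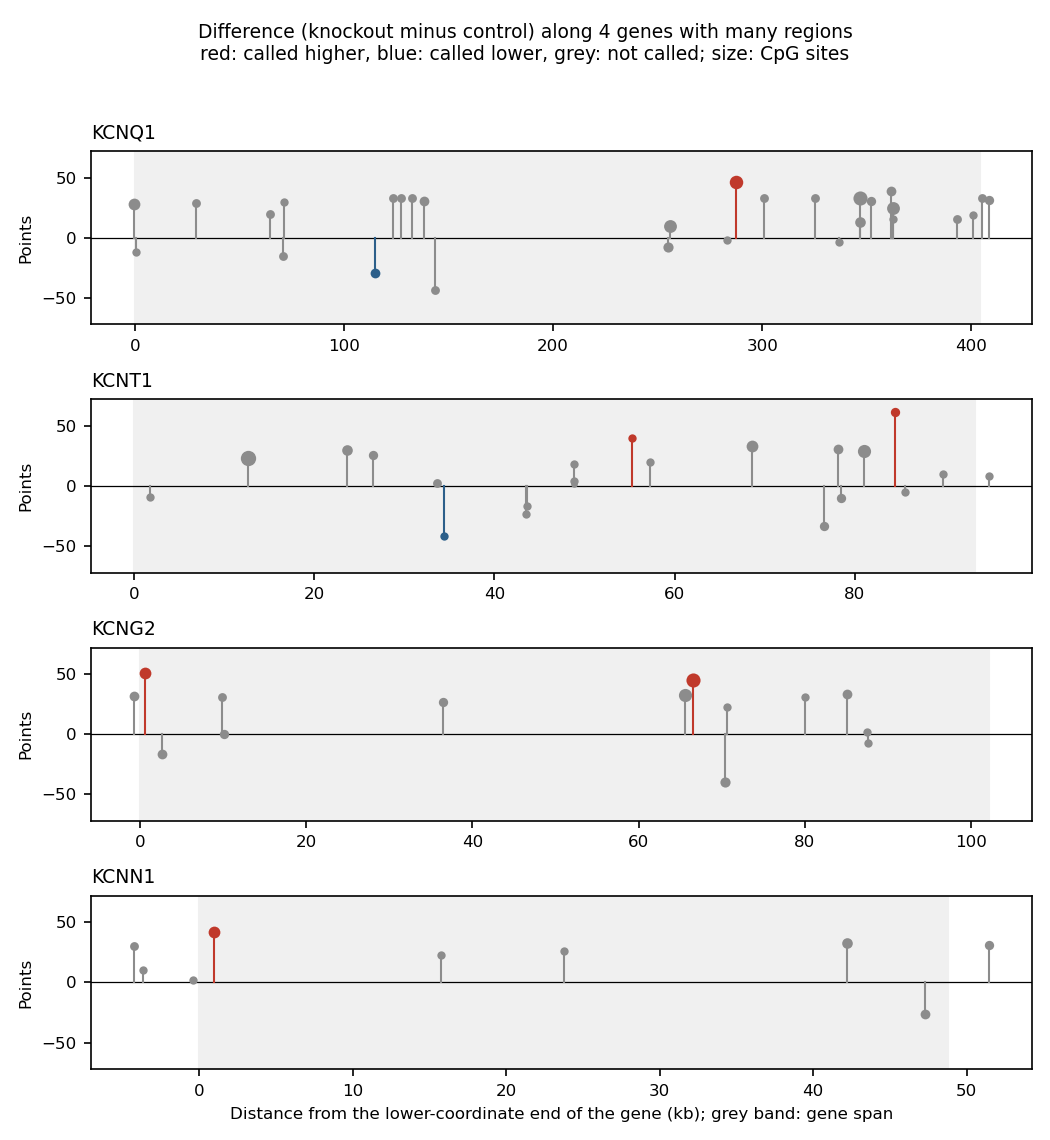
Difference in methylation (knockout minus control, percentage points) along KCNQ1, KCNT1, KCNG2 and KCNN1, with distance in kb from the lower-coordinate end of each gene and the gene span shaded; red stems are called gains, blue stems called losses, grey stems regions not called. Called regions stand singly among uncalled ones: 2 of 29 at KCNQ1, 3 of 22 at KCNT1, 2 of 14 at KCNG2 and 1 of 9 at KCNN1.

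Inward rectifiers (KCNJ), which pass potassium more easily into the cell than out of it, had 24 regions at 10 of 16 genes. Of these 6 were called, 3 gains and 3 losses (against 6.74% called over the table). KCNJ2 encodes a strong rectifier of heart and skeletal muscle. Its only region, 5 sites 494 bases outside the gene and over KCNJ2-AS1, was at 13.3% in the knockout and 49.9% in the control (chromosome 17, 70169020 to 70169038, q = 0.00655). The loss at KCNJ12, another strong rectifier gene, was the smallest called difference at 25.1 points, with 19.1% in the knockout and 44.2% in the control over 17 sites inside the gene (chromosome 17, 21376700 to 21376834, q = 0.00728). KCNJ12 has a near-identical copy, KCNJ18, so reads may not be assigned with certainty between them. KCNJ10 gave the third loss. The gains were at KCNJ5 and KCNJ6, whose subunits form channels opened by G proteins, and at KCNJ4, a strong rectifier gene. KCNJ6 was at 83.2% in the knockout and 37.7% in the control over 10 sites (chromosome 21, 37914463 to 37914482, 1984.5 bases from the start, q = 0.000447). KCNJ5 was at 55.8% in the knockout and 13.1% in the control over 12 sites 847.5 bases before the start (chromosome 11, 128890415 to 128890602, q = 0.00642), and KCNJ4 at 47.4% in the knockout and 13.2% in the control over 28 sites 90.5 bases from an end of the gene (chromosome 22, 38455043 to 38455174, q = 0.00169).

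Two-pore channels (KCNK), whose leak current holds the resting potential, had 32 regions at 13 of 15 genes. They held 4 calls (12.5%, against 6.74% of all regions), all gains, beside the 67.8% of gains among calls of the table. KCNK1 was at 90.9% in the knockout and 34.3% in the control over 5 sites inside the gene (chromosome 1, 233614661 to 233614690, q = 0.00323). KCNK13 was at 97.8% in the knockout and 57.6% in the control over 5 sites 927 bases outside the gene (chromosome 14, 90061044 to 90061067, q = 0.00315). KCNK12, the closest relative of KCNK13, had 2 called regions 800 bases apart, 36 sites at 36.2% in the knockout and 5.56% in the control (q = 0.00194) and 7 sites at 60.2% in the knockout and 28.3% in the control (q = 0.00516). Both also lie within the annotated span of another gene. KCNK9, which is expressed from the maternal copy, had 4 regions and none called; its lowest q was 0.0312, for 16 sites at 74.1% in the knockout and 39.4% in the control. KCNK16 and KCNK17 are neighbours and share 4 regions, none called.

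Of regions at calcium- and sodium-activated channel genes, 1 of 4 was called for BK channel subunits, 2 of 23 for small- and intermediate-conductance channels (8.70%) and 3 of 23 for sodium-activated channels (13.04%), against 6.74% of all regions. KCNMA1 encodes the pore of the big-conductance (BK) channel. Its called region inside the gene was at 84.9% in the knockout and 34.9% in the control over 10 sites (chromosome 10, 77590492 to 77590585, q = 0.00332), while 5 sites before its start were at 66.1% in the knockout and 61.2% in the control (q = 1). Among small-conductance channel genes, KCNN2 rose over 10 sites to 77.3% in the knockout against 21.9% in the control, at -701 bases from an annotated start (chromosome 5, 114361333 to 114361405, q = 0.000407). A further 7 KCNN2 sites 1251.5 bases after that start were at 80.8% in the knockout and 27.0% in the control without a call (q = 0.0157), and the 3 regions between these 2 were not called either. KCNN1, with 9 regions, had the call at its start printed above. KCNN4, the Gardos channel gene, had 2 regions and none called, the lower q being 0.0746 for 5 sites at 1.34% in the knockout and 9.67% in the control.

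KCNT1, a sodium-activated channel gene of neurons, had 3 calls among its 22 regions, the most of any channel gene. The largest called difference of all channel regions, 61.5 points, was here: 7 sites at 68.6% in the knockout and 7.14% in the control (chromosome 9, 135786550 to 135786595, q = 0.00297). A second gain covered 5 sites at 90.9% in the knockout and 51.3% in the control (135757458 to 135757473, q = 0.000707). The loss covered 5 sites within 6 bases, at 44.8% in the knockout and 86.4% in the control (135736549 to 135736554, q = 0.0064).

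For the 60 genes with an annotated start, 64 regions were centred within 1 kb of one and 14 of these were called (21.9%, against 8.98% of all regions equally near a start of an autosomal protein-coding gene). They comprised 10 gains and 4 losses, at KCNA3, KCNH8, KCNJ2 and KCNJ10. Of the 103 regions farther away 10 were called (9.71%). The median difference was 13.96 points within 1 kb of a start and 22.2 points farther away. For the 18 regions overlapping a promoter window it was 0.560 points, with 1 called gain and 2 called losses. Regions inside genes numbered 201 with 25 called (12.4%), and those outside 67 with 9 called (13.4%). The median difference was 22.3 points inside genes and 4.86 points outside. Shares of all regions farther from starts, inside genes or outside them were not computed, and 6.74% of the whole table was called. Median differences of all regions by such places were not computed either. Neighbouring channel regions no more than 1 kb apart had the same direction in 38 of 67 pairs (56.7%), against 55.8% over the whole table.

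**Figure D4:**
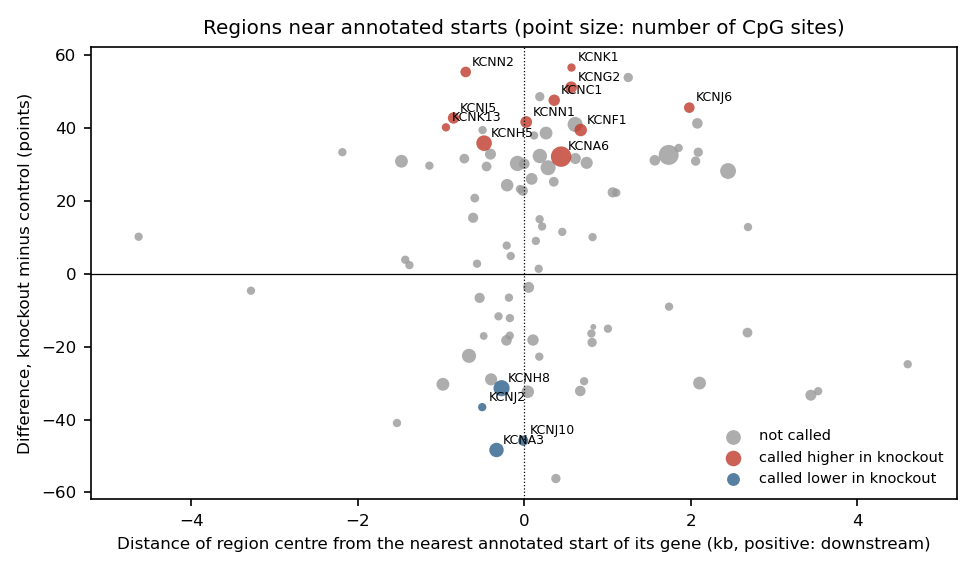
Difference in methylation (knockout minus control, percentage points) against the distance in kb of a region's centre from the nearest annotated start of its gene, for the 91 channel regions within 5 kb of a start; point size grows with the number of CpG sites. The 15 called regions, 11 gains in red and 4 losses in blue, all lie within 2 kb of a start.

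Of 20 genes for partner subunits, such as the KCNAB, KCNE and KCNIP families and the DPP proteins that bind Kv channels, 12 had regions. Of their 51 regions 2 were called (3.92%, against 6.74% over the table), both gains. LRRC26, a subunit of BK channels, was at 85.0% in the knockout and 39.5% in the control over 5 sites (q = 0.000787). DPP6, which partners KCND channels, was at 52.0% in the knockout and 22.6% in the control over 7 sites (q = 0.00913).

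At the 5 kb limit, the outermost regions kept were 4905 bases from KCNJ14 (32.9% in the knockout and 0% in the control) and 4630 bases from KCNJ9 (29.6% in the knockout and 0% in the control). Just beyond the limit was a region 5409 bases from KCNG2 (29.7% in the knockout and 0% in the control). None of these 3 was called.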

How the data were processed

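Genomic DNA of 3 DNMT3B knockout and 3 control M07e libraries was read by RRBS, from 500 ng of input cut with MspI, per the labels' protocols. Build hg38 and the tools methylKit, HISAT2, Bismark, Trimmomatic and FastQC are listed, without roles or versions, per the submitters' processing notes. Which program drew the regions was not given in the sources used here. Per the file headers, the authors deposited for each region the percent methylation of each group, a mean difference (a score in percentage points), a count of CpG sites, 2 p-values (Mann-Whitney and 2-dimensional Kolmogorov-Smirnov) and a q-value whose derivation is not given. Read depth is unknown.

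Regions were joined to RefSeq gene spans (GRCh38.p14) with pandas 2.3.3 in Python 3.11.15. Gene members, role groups and lists were chosen with earlier results of these data known. Named genes are all members with a called region, the 5 with most regions, KCNQ1, KCNN4, KCNA3, KCNH2, KCNMA1 and KCNK9, and up to 3 called genes per list. Results at some members are not reported here. Other members named were chosen after their values were seen. No set or library test was run. Intervals of medians are binomial, over regions. Sites were set against promoter sequence: with a region taken from the file's start plus 2 to its stop plus 1, the first and last base fell in a CpG in 2499 of 2499 regions inside promoter windows. The bases in CpG equalled the stated sites in 1416 of these regions, exceeded them in 1083 and were fewer in 0. Equal counts are reached only if the cytosines of both strands are counted, so sites are cytosines of either strand. Positions are printed in that reading, 1-based. The deposited difference departs from the difference of the 2 means by over 0.01 points in 4 channel regions, none called, 1 of them with the opposite sign. Assignment and adjustment were tested on simulated data. Alternatives covered thresholds, adjustment, flank, site number, merging and weighting.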

Additional observations from a re-analysis of the deposited data

How the results depend on the processing

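Of 34 called channel regions, 21 remained at a difference of at least 40 points (5 lower in the knockout), 15 at q under 0.001 (12 higher, 3 lower) and 19 when the deposited Kolmogorov-Smirnov p was adjusted by Benjamini-Hochberg over all regions (15 higher, 4 lower). Over all regions the called shares at these settings were 3.42%, 3.31% and 4.12%. At q under 0.05, 51 of 268 channel regions were called, 37 of them gains, against 10.5% of all regions. Inside gene spans alone 25 of 201 regions were called (12.4%), 6 of them losses. Genes with a called region numbered 19, 13 and 17 instead of 29 at the first 3 settings. The share of all genes at those settings was not computed. Counts at a difference of at least 10 points, with a 50 kb flank, at least 5 sites, merged neighbours or, chosen after seeing the data, positions read as a plain half-open count stayed within 1.5 times the counts reported. The median difference of 20.0 points was 10.1 points without regions at 0 in one group and 25% to 33.34% in the other, 10.3 points as the mean of gene medians and 24.4 points weighted by sites, and the cause was not tested. No paired analysis was possible because the table holds 1 mean per group, which also prevented leaving out replicates. Depth is unknown.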

Other observations

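Other ion channel genes gave called regions in the authors' deposited table too. Of 25 voltage-gated calcium channel genes 24 had regions, and 9 of 151 regions were called (5.96%, against 6.74% over the table), 7 higher and 2 lower in the knockout. CACNA1H, a low-voltage-activated channel gene, had the largest difference, a loss to 12.6% in the knockout against 74.7% in the control over 9 sites (q = 3.56e-05), and also a gain to 54.6% in the knockout against 2.22% in the control over 5 sites (q = 0.000306). CACNB3, an auxiliary subunit gene, was at 78.7% in the knockout and 27.1% in the control (q = 0.00343), and CACNA2D2 at 62.9% in the knockout and 17.6% in the control (q = 0.000859). Of 18 voltage-gated sodium and HCN channel genes 10 had regions, and 5 of 37 regions were called (13.5%, against 6.74% over the table and 12.7% of potassium channel regions), 4 higher and 1 lower. HCN2, a pacemaker channel gene, had a gain to 74.0% in the knockout against 26.5% in the control (q = 9.75e-07) and, 1328 bases outside the gene, a loss to 1.98% in the knockout against 30.4% in the control (q = 0.00217).

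KCND1, which lies on X and was not among the 81 genes, had 1 region with 11 sites at 38.8% in the knockout and 24.8% in the control (q = 2.83e-06, a difference of 14.01 points).

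KCNG4 had 3 regions, chosen here after their values were seen, with a control mean of 0 in each. Their knockout means were 47.4%, 65.1% and 12.8% over 5, 6 and 5 sites, and the authors' q was 1 for each. As at other regions with a mean of 0, that q is not evidence of equal levels.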
